A study of Homo sapiens with 6 samples.

Results

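The genes described here write, copy, read and remove DNA methylation: DNMT1, DNMT3A, DNMT3B, UHRF1, TET1, TET2, TET3, TDG, MBD2 and MBD4. They were chosen by name, as every library table row whose gene name, split at commas, contains a member. All 10 were found in each library table, among 56584 gene symbols in all. In the authors' deposited table of the comparison, with 13674 genes, only rows naming a member alone were matched, and 8 members had one. Messenger RNA came from 2 human cell lines, LY19WT and LY19Y646F, each labelled an immortalized B cell line from lymphoma, with 3 libraries per line. LY19WT is labelled wild type for EZH2, and LY19Y646F is labelled as expressing EZH2-Y646F constitutively under a CMV promoter. All cells were untreated and at passages 10 to 15. The sources used here do not say whether LY19Y646F was derived from LY19WT cells, or whether it is a clone or a pool.

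DNA methylation in mammals lies mainly on cytosines followed by guanine, called CpG sites. DNMT3A and DNMT3B place new methyl groups, and DNMT1 copies existing ones onto the new strand after replication, guided by UHRF1, which binds half-methylated sites. The TET enzymes oxidise methylcytosine, TDG excises the oxidised bases, MBD4 repairs mismatches left by deaminated methylcytosine, and MBD2 binds methylated CpG and brings in the NuRD corepressor complex. DNMT3A and TET2 are recurrently mutated in blood cancers, and EZH2, the enzyme altered in LY19Y646F, writes a separate repressive mark on histone H3.

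Values are FPKM, fragments per kilobase of transcript and scaled to the library's mapped fragments, so levels of different genes can be set side by side per length. EZH2 itself measured 70.6 ± 8.73 FPKM in LY19WT and 81.4 ± 11.7 FPKM in LY19Y646F (SD, n = 3 each), which counts any introduced transcript together with the cell's own. Read totals per library are unknown here. The 10 highest rows held 5.71% to 9.38% of summed FPKM in 5 libraries and 27.5% in LY19WT replicate 3. The lines differed in lineage markers: 6 markers of precursor B cells summed to between 781 and 2345 FPKM in the LY19WT libraries and between 1.76 and 5.73 FPKM in those of LY19Y646F. Up to 2 of the 6 were at 0 in a LY19Y646F library and up to 1 in a LY19WT library. CD34, 1 of the 6, read at most 0.0239 FPKM in any library. The 7 B cell markers summed to 397 to 590 and 587 to 940 FPKM, the 5 T cell markers to at most 1.46 FPKM in any library, and the 5 myeloid markers to 15.4 to 21.7 and 0.613 to 0.804 FPKM. The part of this lineage difference in the results below was not tested. In bulk RNA, fewer cells of a type and less RNA per cell cannot be told apart.

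The upstream sequences of 3 members with called differences are shown because CpG sites are what these proteins act on. Each is the 250 bases before the first start site that RefSeq lists for the gene on GRCh38.p14, written 5′ to 3′ on the gene's own strand with CpG sites in capitals. The expression tables use hg19, a different build, and do not say which start site was used.
DNMT3A, chr2:25342484-25342733, minus strand: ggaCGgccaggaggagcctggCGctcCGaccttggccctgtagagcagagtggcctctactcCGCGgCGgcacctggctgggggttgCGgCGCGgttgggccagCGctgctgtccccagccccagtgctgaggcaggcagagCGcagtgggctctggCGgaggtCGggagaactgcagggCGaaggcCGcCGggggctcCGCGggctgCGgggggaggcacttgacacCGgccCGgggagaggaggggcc
DNMT3B, chr20:32779602-32779851, plus strand: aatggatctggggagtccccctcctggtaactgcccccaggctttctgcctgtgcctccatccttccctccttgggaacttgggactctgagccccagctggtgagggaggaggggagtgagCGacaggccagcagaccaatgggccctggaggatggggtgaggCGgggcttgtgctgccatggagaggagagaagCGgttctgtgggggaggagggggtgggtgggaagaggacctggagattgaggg
UHRF1, chr19:4909251-4909500, plus strand: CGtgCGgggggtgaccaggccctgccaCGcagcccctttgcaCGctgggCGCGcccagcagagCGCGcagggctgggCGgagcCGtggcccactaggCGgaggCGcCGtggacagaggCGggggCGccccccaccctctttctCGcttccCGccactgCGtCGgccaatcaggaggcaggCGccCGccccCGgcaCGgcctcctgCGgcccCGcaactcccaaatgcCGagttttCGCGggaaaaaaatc
The window held 21 CpG sites for DNMT3A, 3 for DNMT3B and 28 for UHRF1, against a median of 11 over 27305 such windows, 1 per gene. Both strands were searched for TTTCCCGC and TTTGGCGC, E2F-type motifs that do not overlap here. UHRF1 was the only member of 10 whose window held either, in the form TTTCCCGC, and 1.42% of all windows held that motif. RefSeq lists 6 start sites for DNMT3A, 3 for UHRF1 and 1 for DNMT3B, and the other windows were not searched.

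Of the 10 genes, 9 could be tested between the lines and 5 passed: DNMT3B and MBD2 were higher in LY19Y646F, and DNMT3A, TET2 and UHRF1 were lower. The test was limma on log2(FPKM + 1), two-sided, with Benjamini-Hochberg adjustment over the 10706 genes that averaged 0.5 FPKM or more. It called 33.3% of all tested genes at an adjusted p under 0.05, 16.8% higher and 16.5% lower in LY19Y646F. All 5 called members were also at least 1 apart on the log2 scale, and 20.5% of all tested genes were both called and at least 1 apart. The libraries of the lines did not overlap for 8 of the 9 tested members, and for 48.6% of all tested genes. The median change of the 9 was -0.19 on the log2 scale, and that of all tested genes -0.03. With the sign set aside, the medians were 1.40 and 0.63. The 1.40 is the change of TET1, which did not pass and includes a merged row. Whether libraries of a line are separate cultures is not labelled, and the p-values therefore cover library-to-library spread, which may be technical.

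**Figure D1:**
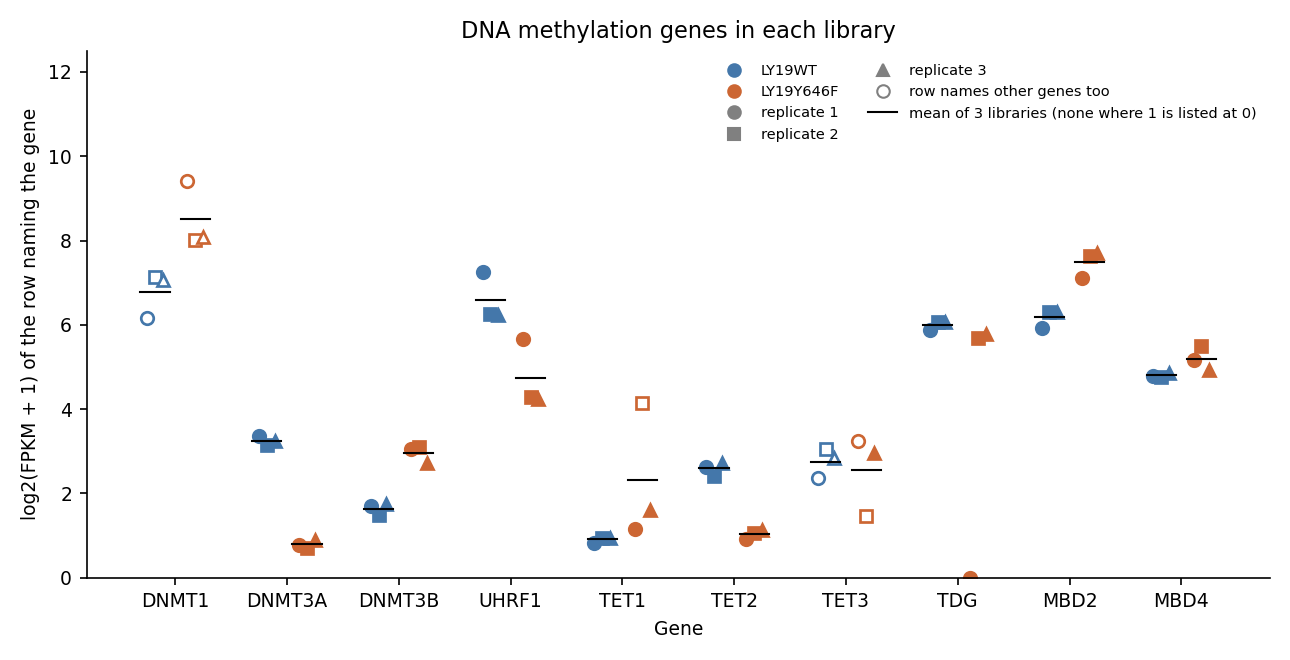
Level of each of the 10 genes as log2(FPKM + 1), with 1 point per library, blue for LY19WT, orange for LY19Y646F, shape for the replicate number and an open symbol where the row names other genes too. DNMT3A and DNMT3B exchange places between the lines, DNMT1 rests on merged rows in every library, and TDG is listed at 0 in LY19Y646F replicate 1.

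DNMT3A, a de novo methyltransferase, was the member with the largest called change. Its row (hg19 chromosome 2, 25455693 to 25565459 in LY19WT replicate 1) read 9.30, 7.90 and 8.52 FPKM in LY19WT replicates 1 to 3, against 0.720, 0.641 and 0.850 FPKM in LY19Y646F. Every LY19WT library was above every LY19Y646F library, and the spread within a line was small beside the gap. The means of 8.57 ± 0.703 and 0.737 ± 0.105 FPKM (SD, n = 3 each) made DNMT3A 11.6-fold lower in LY19Y646F. On the log2(FPKM + 1) scale it fell by 2.46 (SE 0.13, limma adjusted p of 0.00011), a change larger in size than in 92.3% of tested genes. Cufflinks' own confidence bounds in the library tables reached up to 1.16 FPKM in LY19Y646F and down to 7.35 FPKM in LY19WT. The level went from the middle of the tested genes, where 50.4% were at or below it, to the lower end, with 15.2%.

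DNMT3B, its paralog, moved the other way. The row (hg19 chromosome 20, 31350191 to 31397162 in LY19WT replicate 1) read 2.23, 1.79 and 2.35 FPKM in LY19WT, against 7.37, 7.53 and 5.66 FPKM in LY19Y646F. The lines did not overlap, and the lowest LY19Y646F value came from replicate 3. Every library also held unnamed rows inside the locus, which are not counted in these values. They read 1.34 to 18.8 FPKM in LY19Y646F replicate 3 and 0.382 to 1.29 FPKM in the other libraries. Their part in the DNMT3B values was not tested. DNMT3B was 3.22-fold higher in LY19Y646F, 6.85 ± 1.04 against 2.13 ± 0.296 FPKM (SD, n = 3 each), a log2 change of 1.32 (SE 0.16, limma adjusted p of 0.0025). Both calls held when any single library was left out, with limma adjusted p-values of at most 0.0016 for DNMT3A and 0.015 for DNMT3B.

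Set against each other, the pair changed order in all libraries. DNMT3A made up 80.7%, 81.5% and 78.3% of the summed FPKM of the pair in the 3 LY19WT libraries. In the LY19Y646F libraries it made up 8.90%, 7.85% and 13.1%. The sum itself lay between 9.69 and 11.5 FPKM in LY19WT and between 6.51 and 8.17 FPKM in LY19Y646F, so it differed far less than the share. These shares describe the same values and were not tested.

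**Figure D2:**
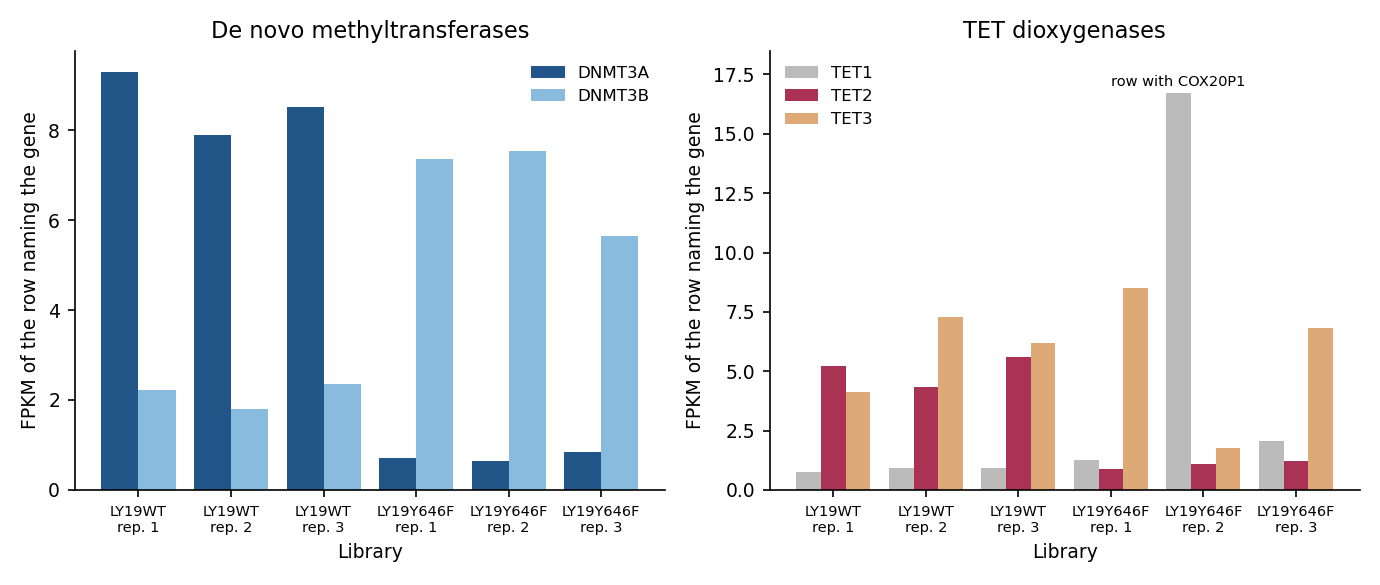
Bars give the FPKM of DNMT3A and DNMT3B (left) and of TET1, TET2 and TET3 (right) in each library, on linear axes from 0 and without replicate averaging. DNMT3A is the taller bar in the 3 LY19WT libraries and DNMT3B in the 3 LY19Y646F libraries; the TET1 bar of 16.7 FPKM is a row shared with COX20P1.

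DNMT1, the maintenance methyltransferase, could not be separated from its neighbours. In every library its row also named S1PR2, a receptor for sphingosine-1-phosphate, and in LY19Y646F replicate 1 it named EIF3G, a translation initiation factor, as well. The row read 70.9, 139 and 133 FPKM in LY19WT, against 684, 257 and 272 FPKM in LY19Y646F. All LY19Y646F rows were higher, and the highest was the one that included EIF3G, which had a row of its own at 111 to 216 FPKM in the other 5 libraries. The difference of 1.72 on the log2 scale had an exact two-sided permutation p of 0.10, the smallest that 3 libraries against 3 can give. It was 1.26 without LY19Y646F replicate 1. In a limma fit that counted merged rows for every gene they name, the adjusted p was 0.059. No value for DNMT1 alone can be given, and the authors' deposited table of the comparison has no row that names DNMT1 alone. Rows there that name several genes were not searched.

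UHRF1, the partner that recruits DNMT1 to half-methylated DNA, was lower in LY19Y646F, but the call was close to the threshold. Its row (hg19 chromosome 19, 4903092 to 4962165) read 152, 75.8 and 74.2 FPKM in LY19WT, against 49.7, 18.6 and 18 FPKM in LY19Y646F. Replicate 1 was the highest library of each line, and the lines did not overlap. UHRF1 was 3.50-fold lower in LY19Y646F, 28.8 ± 18.1 against 101 ± 44.5 FPKM (SD, n = 3 each). It fell by 1.85 on the log2 scale (SE 0.50, limma adjusted p of 0.041). The call was lost when any library other than LY19Y646F replicate 1 was left out, with limma adjusted p-values from 0.083 to 0.13. Without LY19Y646F replicate 1 the adjusted p was 0.014.

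UHRF1 and DNMT1 are highest in cycling cells, so genes of proliferation are given beside them. Of 11 tested members of that list, TYMS, TOP2A and MKI67 were lower and CDK1 higher in LY19Y646F, and 7 did not pass. TYMS, which makes thymidylate for replication, measured 445 ± 62.5 and 231 ± 4.12 FPKM, and CDK1, the mitotic kinase, 129 ± 7.70 and 195 ± 33.2 FPKM (SD, n = 3 each). The median change of the list was 0.15. Leaving out single libraries, TYMS kept its call in 6 of 6 fits, TOP2A and MKI67 in 3 each and CDK1 in 2. Without LY19WT replicate 2, and likewise without LY19WT replicate 3, 1 gene of the list passed as lower and 0 as higher. The part of proliferation in the UHRF1 difference was not tested.

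TET2, a dioxygenase that starts the removal of methylcytosine, was lower in LY19Y646F. Its row (hg19 chromosome 4, 106067032 to 106200973) read 5.23, 4.34 and 5.60 FPKM in LY19WT, against 0.882, 1.08 and 1.21 FPKM in LY19Y646F. The highest LY19Y646F library was well below the lowest LY19WT library. TET2 was 4.78-fold lower, 1.06 ± 0.166 against 5.06 ± 0.646 FPKM (SD, n = 3 each), a fall by 1.56 on the log2 scale (SE 0.15, limma adjusted p of 0.00098). The call held without any single library, with adjusted p-values of at most 0.0075.

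TET1 read 0.776, 0.926 and 0.940 FPKM in LY19WT, against 1.24, 16.7 and 2.07 FPKM in LY19Y646F. The value of 16.7 FPKM in LY19Y646F replicate 2 belongs to a row that names TET1 together with COX20P1, a pseudogene. COX20P1 had a row of its own in the other 5 libraries, at 13.6 to 18.9 FPKM, a range that includes the merged value. In LY19Y646F replicate 1, Cufflinks' bounds for TET1 ran from 0 to 6.34 FPKM. TET1 did not pass (log2 difference 1.40, SE 0.81, limma adjusted p of 0.25). Without LY19Y646F replicate 2 the difference was 0.48, with an adjusted p of 0.16, and the other LY19Y646F libraries averaged 1.88 times the LY19WT mean.

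TET3 did not differ detectably between the lines. Its row, which in 5 libraries also names 2 genes that GENCODE 29 does not list as protein-coding, read 4.13, 7.27 and 6.18 FPKM in LY19WT, against 8.53, 1.76 and 6.80 FPKM in LY19Y646F. The lines overlapped, and the log2 difference was -0.19 (SE 0.52, limma adjusted p of 0.81). The lowest library of each line, LY19WT replicate 1 and LY19Y646F replicate 2, also held an unnamed row that ended 36 bases inside the end of the TET3 row. Those unnamed rows measured 3.9 and 9.25 FPKM, and the same search, within 100 bases of the locus end, found none in the other 4 libraries. Without LY19Y646F replicate 2 the TET3 difference was 0.36 (adjusted p of 0.41).

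Within the TET family, TET2 gave 51.6%, 34.6% and 44.0% of the summed FPKM in LY19WT and 8.28%, 5.52% and 12.0% in LY19Y646F. The share of TET2 was thus lower in each LY19Y646F library than in any LY19WT library, including the 2 in which TET1 had a row of its own. These shares carry the merged rows of TET1 and TET3 and were not tested.

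The remaining members read methylation or repair what follows from it. MBD2, which binds methylated CpG, was higher in LY19Y646F. Its row (hg19 chromosome 18, 51679079 to 51751158) read 59.4, 78.5 and 78.1 FPKM in LY19WT, against 137, 196 and 208 FPKM in LY19Y646F. Replicate 1 was the lowest library of each line, and the lines did not overlap. MBD2 was 2.5-fold higher, 180 ± 38.1 against 72.0 ± 10.9 FPKM (SD, n = 3 each), a log2 change of 1.3 (SE 0.21, limma adjusted p of 0.0067), and it kept its call without any single library. It was also the most abundant of the 9 tested members in LY19Y646F, where 95.8% of tested genes were at or below it.

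MBD4, a glycosylase that removes thymine paired with guanine, read 26.7, 26.3 and 27.9 FPKM in LY19WT, against 35.0, 44.2 and 29.5 FPKM in LY19Y646F. The lines did not overlap, but the LY19Y646F libraries were widely spread. The log2 difference of 0.39 did not pass (SE 0.16, limma adjusted p of 0.13).

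TDG, the glycosylase that excises oxidised methylcytosine, read 57.9, 66.4 and 65.9 FPKM in LY19WT, against a listed 0, 50.6 and 53.8 FPKM in LY19Y646F. The 0 stood in replicate 1, in a row with an OK status and the same boundaries as elsewhere. In that library 158 tested genes, or 1.48%, were listed at 0 while both other libraries of the line had at least 5 FPKM, against 73 to 130 genes in each of the other 5 libraries. The log2 difference of -2.18 did not pass (SE 1.66, limma adjusted p of 0.38). Without LY19Y646F replicate 1 it was -0.27, with an adjusted p of 0.091.

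**Figure D3:**
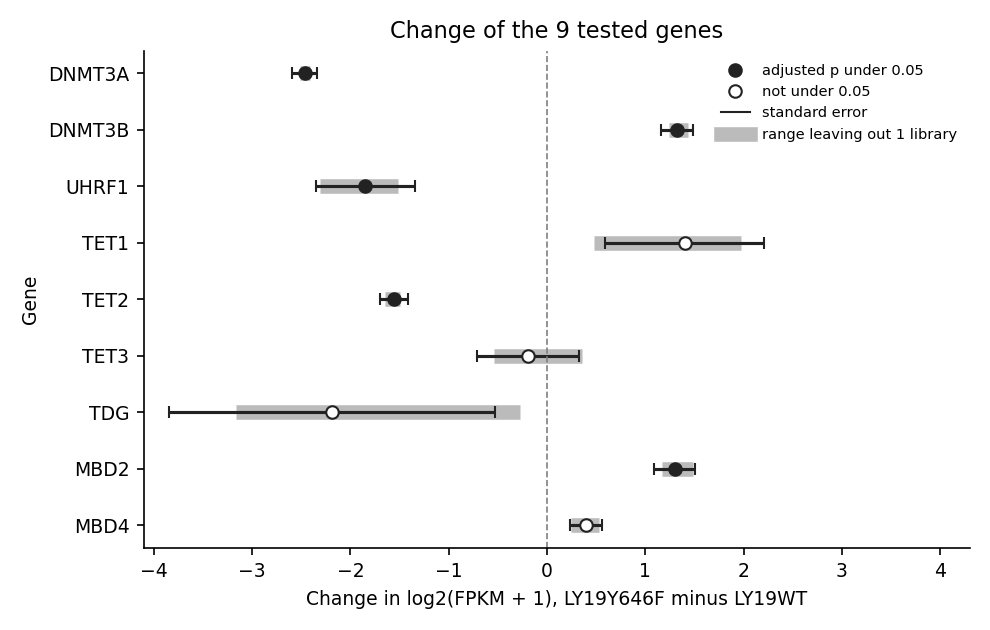
Change of the 9 tested genes in log2(FPKM + 1), LY19Y646F minus LY19WT, with the limma standard error and, in grey, the range over 6 fits that each leave out 1 library; filled points have an adjusted p under 0.05. DNMT3A, DNMT3B, TET2 and MBD2 have narrow grey ranges, while those of TDG (-3.16 to -0.27) and TET3 (-0.54 to 0.36) are wide.

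The table that the authors deposited from Cuffdiff gives 1 FPKM per line and was built on loci merged across libraries. In that authors' deposited table, all 8 listed members had the direction found in the library tables, as did 86.3% of 8289 genes in both sources. For MBD4 the difference there was small, 41.9 and 44.2 FPKM, or 0.07 on the log2(FPKM + 1) scale against 0.39 in the library tables. The authors' deposited table gives DNMT3A 9.95 and 0.731 FPKM, DNMT3B 2.31 and 7.05 FPKM and TET2 5.65 and 1.19 FPKM in LY19WT and LY19Y646F. These lie close to the means of the library tables. Levels of other members differed more: MBD2 stands at 244 and 553 FPKM in the authors' deposited table, 3.38 and 3.07 times its library means, and UHRF1 at 59.2 and 16.5 FPKM, below its library means. The authors' deposited table gives TDG 73.5 and 53.6 FPKM and TET1 0.874 and 1.68 FPKM, with no value near 0 for TDG and none near 16.7 FPKM for TET1. Its rows can be wider: that of TDG spans 223 kb and that of DNMT3A 300 kb, against 23.1 and 110 kb in LY19WT replicate 1. What the wider rows add to these values was not tested. Both sources come from the same libraries, so the second is not independent of the first.

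**Figure D4:**
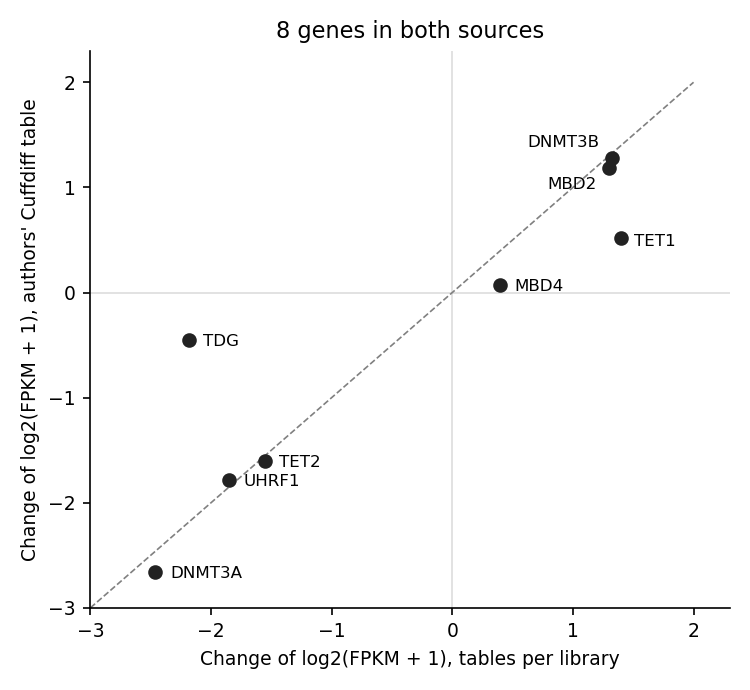
Change in log2(FPKM + 1), LY19Y646F minus LY19WT, of the 8 genes in both sources, from the library tables (horizontal) and recomputed from the authors' Cuffdiff FPKM (vertical), with the line of equality dashed. DNMT3A, DNMT3B, TET2, UHRF1 and MBD2 lie near the line, and TDG, TET1 and MBD4 lie nearer to 0 in the authors' table.

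Genes around this pathway were counted in 7 lists of 75 symbols, of which 53 were tested. In all 16 passed, 7 higher and 9 lower in LY19Y646F, or 30.2%, against 33.3% of all tested genes. Among partners of methylation maintenance and targeting, 2 of 7 tested genes were higher and 1 lower. USP7, a deubiquitinase that stabilises UHRF1 and DNMT1, measured 67.3 ± 7.96 and 226 ± 60.4 FPKM in LY19WT and LY19Y646F, and the replication clamp PCNA 307 ± 28 and 600.1 ± 45.2 FPKM. PCNA shared its row with another name in at least 1 library. UHRF2, the paralog of UHRF1, measured 61.4 ± 7.02 and 43.2 ± 4.50 FPKM (SD, n = 3 each, limma adjusted p of 0.037), a call that was lost in each of the 6 fits that leave out a library (adjusted p of 0.058 to 0.091). HELLS, a remodeller needed for methylation, measured 35.0 ± 2.44 and 42.2 ± 3.85 FPKM and did not pass.

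None of the 4 tested other methyl-CpG binding proteins passed with limma, nor was any at an unadjusted p under 0.05 except ZBTB38 (p of 0.020, adjusted p of 0.057). ZBTB38 read 2.32, a listed 0 and 2.79 FPKM in LY19WT, against 5.94, 7.37 and 8.43 FPKM in LY19Y646F. MBD1, in a row with CCDC11 in 4 libraries, averaged 18.4 and 15.6 FPKM and did not pass (adjusted p of 0.51). The MBD1 values count CCDC11 in those 4 libraries, and MBD1 was tested because CCDC11 was not treated as protein-coding here. MBD3 and MBD6 lay in 1 row with other protein-coding genes in at least 1 library and were not tested, and MBD5 was not tested either, with or without the level filter. Among partners of MBD2 in NuRD, 2 of 6 tested genes were higher and 1 lower. The list has 11 genes, and the rest were not tested. With merged rows counted for every gene they name, 10 were tested, 3 higher and 2 lower. The deacetylase HDAC2 was lower, at 126 ± 11.6 and 44.2 ± 5.54 FPKM, while MTA3 rose from 11.4 ± 3.99 to 35.9 ± 2.67 FPKM and RBBP4 from 194 ± 23.0 to 307 ± 27.5 FPKM (SD, n = 3 each). The median change of the 6 tested genes was 0.70.

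Among partners of the TET enzymes and enzymes of their cosubstrate 2-oxoglutarate, 1 of 7 tested genes was lower and 0 were higher. IDH2, which makes mitochondrial 2-oxoglutarate, measured 105 ± 34.1 FPKM in LY19WT and 0.479 ± 0.247 FPKM in LY19Y646F (SD, n = 3 each), the largest change of the 53 genes. The other 6 tested genes did not pass. IDH1, the cytosolic form, measured 26.0 ± 3.89 and 32.0 ± 6.43 FPKM. The median change of the list was -0.15. In base excision repair downstream of TDG and MBD4, 2 of 8 tested genes were higher and 1 lower. NEIL3 fell from 21.5 ± 2.42 to 5.27 ± 0.297 FPKM, UNG, which removes uracil, rose from 39.0 ± 2.49 to 87.6 ± 26.6 FPKM, and the ligase LIG3, in a row with an unclassified gene in every library, rose from 20.5 ± 0.769 to 28.4 ± 1.02 FPKM. The UNG call was lost without LY19WT replicate 1 or replicate 3 (adjusted p of at most 0.052). UNG shared its row with another name in at least 1 library. Counting only rows that name the gene alone, 4 genes of this repair list were tested, with 0 higher and 1 lower. For synthesis of the methyl donor, 2 of 10 tested genes were lower and 0 higher. Methionine synthase, MTR, fell from 20.9 ± 1.32 to 10.8 ± 1.10 FPKM and MAT2B, a regulatory subunit of methionine adenosyltransferase, from 65.3 ± 3.53 to 44.5 ± 3.34 FPKM.

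**Figure D5:**
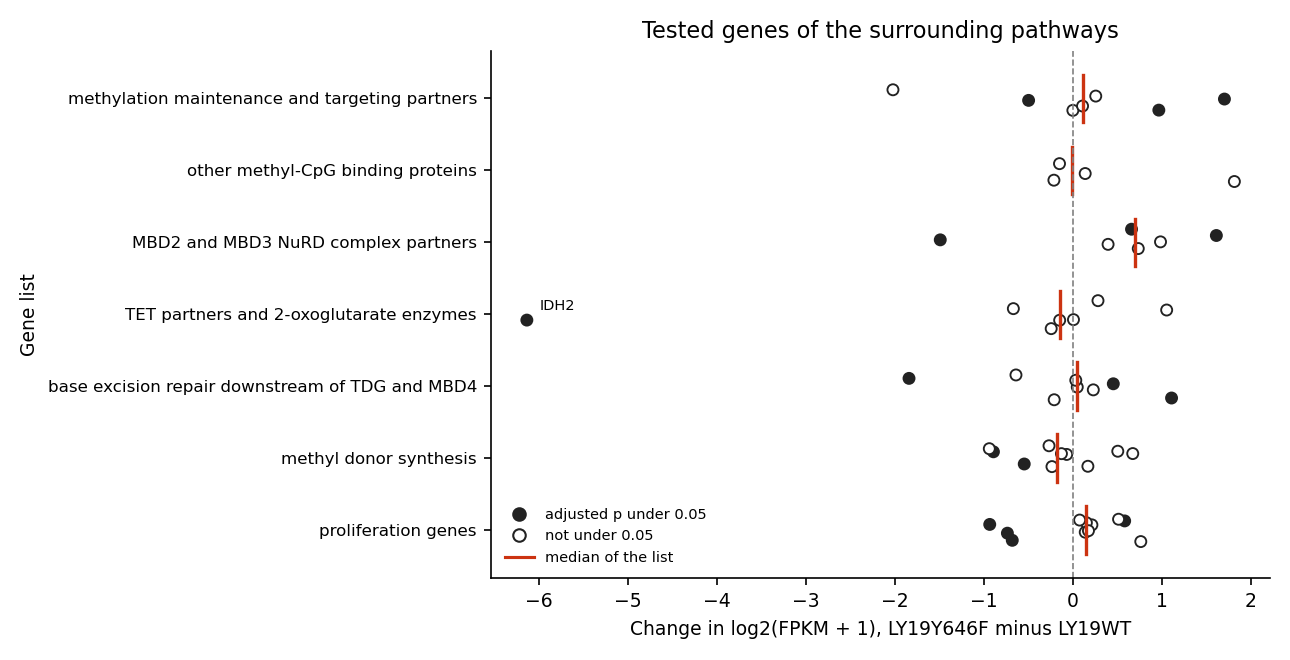
Change in log2(FPKM + 1), LY19Y646F minus LY19WT, of the 53 tested genes in the 7 surrounding lists, with filled points for an adjusted p under 0.05 and a red line at each list's median; vertical scatter within a list has no meaning. List medians lie between -0.18 and 0.70, and IDH2 lies farthest from 0.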

How the data were processed

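The members and gene lists were chosen with earlier results of these data known. Each library has a table of deposited FPKM per gene with Cufflinks confidence bounds, per the file headers. STAR 2.5.3a, Cufflinks 2.2.1, Cuffdiff 2.2.1 and the hg19 build are named in the submitters' processing notes. Loci were assembled in each library separately, so a gene can share a row with neighbours in some libraries (3189 to 3443 rows per library). The authors' deposited Cuffdiff table holds a single FPKM for each line with their log2 ratio.

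Rows were joined by symbol and summed per gene. Genes sharing a row with another protein-coding gene (types from GENCODE 29), non-coding genes in a merged row, and genes with a failed row were left out. This removed 8922 of 56539 symbols, DNMT1 among them. Of the tested genes, 617 shared a row with a name whose type GENCODE 29 does not give, such as a retired symbol, which was not treated as protein-coding. Log2(FPKM + 1) was fitted with limma 3.58.1 in R 4.3.3 (variance trend, Benjamini-Hochberg adjustment, threshold 0.05). The pseudocount understates the change of low genes. The fit was tested on simulated data. Locus starts are printed counted from 1. Absolute depth is unknown, so no counting intervals are given, and precision rests on 3 libraries per line. Named genes were all members, EZH2 and up to 3 genes with the smallest adjusted p per list; HELLS, MKI67, MBD1, MBD3, MBD5, MBD6 and the NuRD genes added by the block were named after their values were seen. Alternatives covered pseudocount, filter, scaling, row handling, weights, replicate block and each library left out. Some genes of these lists are not reported here.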

Additional observations from a re-analysis of the deposited data

How the results depend on the processing

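DNMT3A, DNMT3B, TET2 and MBD2 kept their direction and their call under all 19 alternatives. The lowest and highest log2 changes were -3.38 and -2.27 for DNMT3A, 1.24 and 1.64 for DNMT3B, -2.16 and -1.32 for TET2, and 1.17 and 1.49 for MBD2. UHRF1 kept its direction in all 19 and lost its call in 7, namely 5 of the 6 fits without a library, the fit without a filter (adjusted p of 0.066) and the fit with merged rows counted for every gene (0.054). Both of the latter test more genes. TET3 ranged from -0.54 to 0.36 over the fits that leave out a library and changed sign without LY19Y646F replicate 2; the cause was not tested. Library weights raised the count of called genes from 3562 to 5771 and that of called members from 5 to 7. They added TET1 (log2 change 2.64, limma adjusted p of 0.027) and MBD4 (0.024). Replicate 1 had weights of 0.362 in LY19WT and 0.213 in LY19Y646F. The largest weight, 4.28, went to LY19Y646F replicate 2, whose TET1 row is merged with COX20P1. The weighted TET1 call thus leans on that merged row. One alternative was chosen after seeing the data: values from merged rows, and a 0 where both other libraries of the line had at least 5 FPKM, were set to missing, which left 8 members tested and 5 called.

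Whether the replicate numbers pair the libraries is not labelled. Deviations from the line means correlated at 0.264, 0.0993 and 0.133 for numbers 1, 2 and 3. Libraries of unlike number correlated at -0.179 to 0.0915. Every library correlated best with the library of its own number in the other line, which is a hint from the data, not from the design. With the replicate block, 3879 genes and 5 members were called, and UHRF1 had an adjusted p of 0.0050. Among the 6 tested NuRD partners, those called higher went from 2 to 5 with the block (adding RBBP7, GATAD2A and GATAD2B) and to 4 with library weights. In either direction, the block called 36.2% and library weights 53.9% of all tested genes.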
